A study of Arabidopsis thaliana with 12 samples.

Results

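A group of 48 loci, of 36796 in the count table, was low in wild-type (WT) leaves of Arabidopsis thaliana after abscisic acid (ABA) and kept at least 0.8 of its control level in abf1/2/3/4 mutant leaves. The mutant is defective in 4 transcription factor genes, ABF1 to ABF4. The loci were chosen on leaf values: CPM, the counts per 1000000 counts of the library, averaged over 2 libraries, plus 1, gave an ABA-to-control ratio for each genotype. Members had a ratio of at most 0.25 in WT leaves and of at least 0.8 in mutant leaves, and at least 5 CPM in WT control leaves. Leaf values chose the loci, so they are described here without a test. The guard cell libraries took no part in the choice, and the guard cell response is the tested result.

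The study sprayed rosettes of Col-0 plants aged 5 to 6 weeks with 50 µM ABA or with its ethanol vehicle (control) and took RNA 4 h later. The 6 groups of 2 biological replicates were abf1/2/3/4 whole leaves with ABA and as control, WT whole leaves with ABA and as control, and WT guard cell preparations with ABA and as control. Guard cell RNA came from isolated fragments of leaf epidermis and was purified with another kit than leaf RNA, so a guard cell level set beside a leaf level also carries that difference in method. There were no mutant guard cell libraries in these groups, so the guard cell values show the response of WT plants. The labels give the mutant only by its genotype and name no cell type in which a gene was removed.

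ABA is the hormone of water shortage, which closes stomata and slows growth. It is sensed by soluble receptors that inhibit PP2C phosphatases, which frees SnRK2 kinases to phosphorylate the ABF proteins. ABFs are bZIP factors that bind ABA-responsive elements, whose core is ACGTG, and they are known best as activators. Genes that ABA lowers in leaves are known to include many that act in cell expansion and photosynthesis, and the 48 loci held SAUR genes, growth-promoting bHLH factors, cell wall enzymes, iron reductases and carbonic anhydrases.

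Upstream sequence was read for all members, because ABFs bind ACGTG. In the 250 bases before the annotated start, 14 of 48 members (29.2%) held ACGTG on either strand, beside 22.9% of 27443 protein-coding genes. CACGTG, the G-box, which contains ACGTG on both strands, was in 5 members (10.4%), beside 6.49% of all. GATAAG was in 11 (22.9% beside 12.3%), TTGAC in 18 (37.5% beside 44.9%), TGTCTC in 6 (12.5% beside 10.9%), AATATCT in 4 (8.33%, a lower share than in all) and CCGAC in 2 (4.17% beside 12.0%), on either strand. These shares are descriptions, and 34 members had no ACGTG in this window. In 10 of the 48 windows another annotated locus overlapped the bases read.

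Of the 14 members with ACGTG, the windows of 5 are printed as examples, chosen after their values were seen: FRO6 and FRO7 because they share a stretch around a G-box, and SAUR50, HBI1 and EXPA6 to show 1 SAUR gene, 1 regulator and 1 cell wall gene. The other 9 were SAUR16, AT5G19120, PnsL3, AT4G01460, DIN11, AT4G30020, CA2, TPPH and PME3. Each run is read 5′ to 3′ on the gene's own strand of RefSeq assembly TAIR10.1 and ends at the base before the gene's annotated start. Capitals mark ACGTG or its reverse complement, and 6 capitals in a row mark a G-box.
FRO6 (chr5:20204596-20204845, minus strand): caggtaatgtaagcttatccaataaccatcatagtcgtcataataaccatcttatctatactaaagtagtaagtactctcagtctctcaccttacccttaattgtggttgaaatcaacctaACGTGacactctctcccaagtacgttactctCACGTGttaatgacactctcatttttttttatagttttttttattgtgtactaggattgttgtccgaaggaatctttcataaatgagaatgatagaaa
FRO7 (chr5:20208778-20209027, minus strand): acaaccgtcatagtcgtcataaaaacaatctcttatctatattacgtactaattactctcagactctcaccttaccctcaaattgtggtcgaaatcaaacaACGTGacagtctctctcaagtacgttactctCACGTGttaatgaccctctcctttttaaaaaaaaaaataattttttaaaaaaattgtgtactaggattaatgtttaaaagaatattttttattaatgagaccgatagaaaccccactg
SAUR50 (chr4:16583076-16583325, minus strand): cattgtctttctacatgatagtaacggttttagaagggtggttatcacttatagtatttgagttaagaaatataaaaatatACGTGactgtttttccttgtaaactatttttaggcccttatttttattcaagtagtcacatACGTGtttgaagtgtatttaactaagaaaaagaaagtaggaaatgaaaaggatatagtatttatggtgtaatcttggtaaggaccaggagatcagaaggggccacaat
HBI1 (chr2:7954786-7955035, minus strand): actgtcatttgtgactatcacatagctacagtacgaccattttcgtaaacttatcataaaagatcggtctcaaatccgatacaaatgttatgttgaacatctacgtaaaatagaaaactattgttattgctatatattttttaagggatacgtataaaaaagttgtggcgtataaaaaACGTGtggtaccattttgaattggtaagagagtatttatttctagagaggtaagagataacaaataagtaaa
EXPA6 (chr2:12433797-12434046, minus strand): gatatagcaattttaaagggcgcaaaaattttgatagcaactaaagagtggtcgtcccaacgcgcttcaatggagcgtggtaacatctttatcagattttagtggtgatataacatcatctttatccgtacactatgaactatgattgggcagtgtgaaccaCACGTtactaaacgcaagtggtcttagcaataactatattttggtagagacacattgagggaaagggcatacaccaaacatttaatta

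FRO6 and FRO7, neighbours on chromosome 5 with 706 bases between them, carried the same stretch around the G-box. The longest run that both windows share was 29 bases, caagtacgttactctCACGTGttaatgac, and it began 113 bases before the start of FRO6 and 133 bases before that of FRO7.

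Library totals ran from 25294558 to 47116819 counts. ABF1 to ABF4, checked first, summed to 70.2 and 71.1 CPM in mutant leaves with ABA, against 768 and 801 CPM in WT leaves with ABA, and to 44.8 to 52.6 CPM in mutant control leaves, against 121 CPM in WT control leaves. The genes were unequal: with ABA, ABF1 averaged 44.7 CPM in mutant and 113 CPM in WT leaves, ABF2 11.0 and 124 CPM, ABF3 12.5 and 473 CPM, and ABF4 2.43 and 74.8 CPM. Reads of all 4 were thus fewer but not absent in the mutant, and ABF1 made up most of the mutant sum. At control, 7 vascular markers summed to 3414 to 3583 CPM in the guard cell preparations, against 413 to 434 CPM in WT leaves. SUC2 carried most of this vascular sum, averaging 3212 CPM and 342 CPM. In the same libraries, 9 guard cell markers summed to 2060 to 2189 CPM, against 361 to 410 CPM. The 7 mesophyll markers summed to 18056 to 18226 CPM in the preparations, against 36384 to 38121 CPM in WT leaves. The 6 epidermis markers summed to 1730 to 1891 CPM in the control preparations, against 597 to 622 CPM in WT control leaves. With ABA, the 9 guard cell markers summed to 478 to 576 CPM in mutant leaves and 787 to 948 CPM in WT leaves, both above their controls (343 to 398 and 361 to 410 CPM). CYP86A2, a cuticle enzyme, carried most of these sums, and the other 8 summed to 124.3 CPM in both mutant libraries with ABA and to 58.9 to 74.8 CPM in WT leaves with ABA (controls 126 to 144 and 104 to 122 CPM). With ABA, 7 mesophyll markers summed to 28652 to 31786 CPM in mutant leaves and 23064 to 26708 CPM in WT leaves (controls 30447 to 30475 and 36384 to 38121 CPM). In whole leaves, fewer cells of a type and less RNA per cell cannot be told apart.

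The leaf values placed the members in a corner of the plane of both genotypes. Of 14651 loci with at least 5 CPM in WT control leaves, 255 (1.74%) had a WT ratio of at most 0.25. Of these, 48 (18.8%) had a mutant ratio of at least 0.8, 38 had a ratio of at most 0.25 in the mutant too, and 169 lay between. A mutant ratio of at least 0.8 was found for 72.8% of the 14651 loci. The 48 members kept 80.8% to 175.5% of their control value in mutant leaves, with a median of 102%, against 7.17% to 24.96% in WT leaves, with a median of 19.2%. In all 48, both WT libraries with ABA lay below both WT control libraries, which the limit of 0.25 nearly fixes. No share over all loci is given for this WT order. In mutant leaves the 2 groups overlapped for 24 members, both ABA libraries lay above both controls for 12, and below them for 12. Over the 14651 loci, these last 2 shares were 22.3% and 49.9%. This order depends on scaling: with TMM-scaled totals the groups overlapped for 20 members, with ABA above for 21 and below for 7. The shares over the 14651 loci are in CPM, and none is given for TMM-scaled totals, so the TMM counts have no background. Since the rule used these libraries, nothing is read from the counts.

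**Figure D1:**
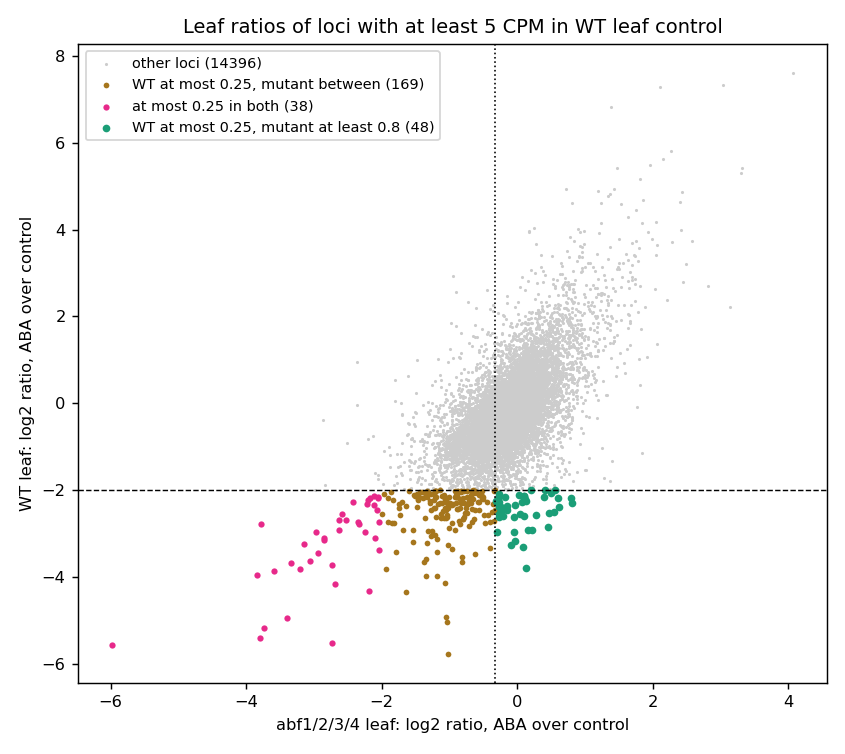
Each point is a locus with at least 5 CPM in WT control leaves, placed by its log2 ABA-to-control ratio in abf1/2/3/4 leaves (horizontal) and WT leaves (vertical). Dashed and dotted lines mark WT 0.25 and mutant 0.8. The 48 chosen loci lie in the lower right, beside 169 with an intermediate and 38 with a low mutant ratio.

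Membership turned on small differences at the edges. CYP96A12, DRB3 and SAUR24 were just inside the WT threshold with ratios of 0.2496, 0.2488 and 0.2487, and KCS8, DES1 and GSTU20 were just outside at 0.2512, 0.2514 and 0.2524. AT5G19090, AT3G17640 and CA2 were just inside the mutant threshold at 0.808, 0.811 and 0.811, and GH9C2, AT1G31690 and AT5G52882 were just outside at 0.796, 0.794 and 0.790. SAUR20 (5.28 CPM), SAUR24 (5.39 CPM) and DRB3 (5.51 CPM) were the lowest in WT control leaves, and AT1G29435 was just outside at 4.54 CPM. With the replicate 1 leaf libraries alone, 42 loci met the rule, of which 32 were members, and with the replicate 2 libraries alone 75 did, of which 40 were members. The rule held in both for 25 members, with 2 of the 7 SAUR genes (SAUR16 and SAUR21) and 6 of 7 transcription regulators. Among the 25 were also FRO6, FRO7, MYB60, BEE2, BBX17, HAT1, ESM1 and FAD5. DIN11 met it in neither, only in the mean: its WT control libraries had 25.02 and 8.97 CPM.

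**Figure D2:**
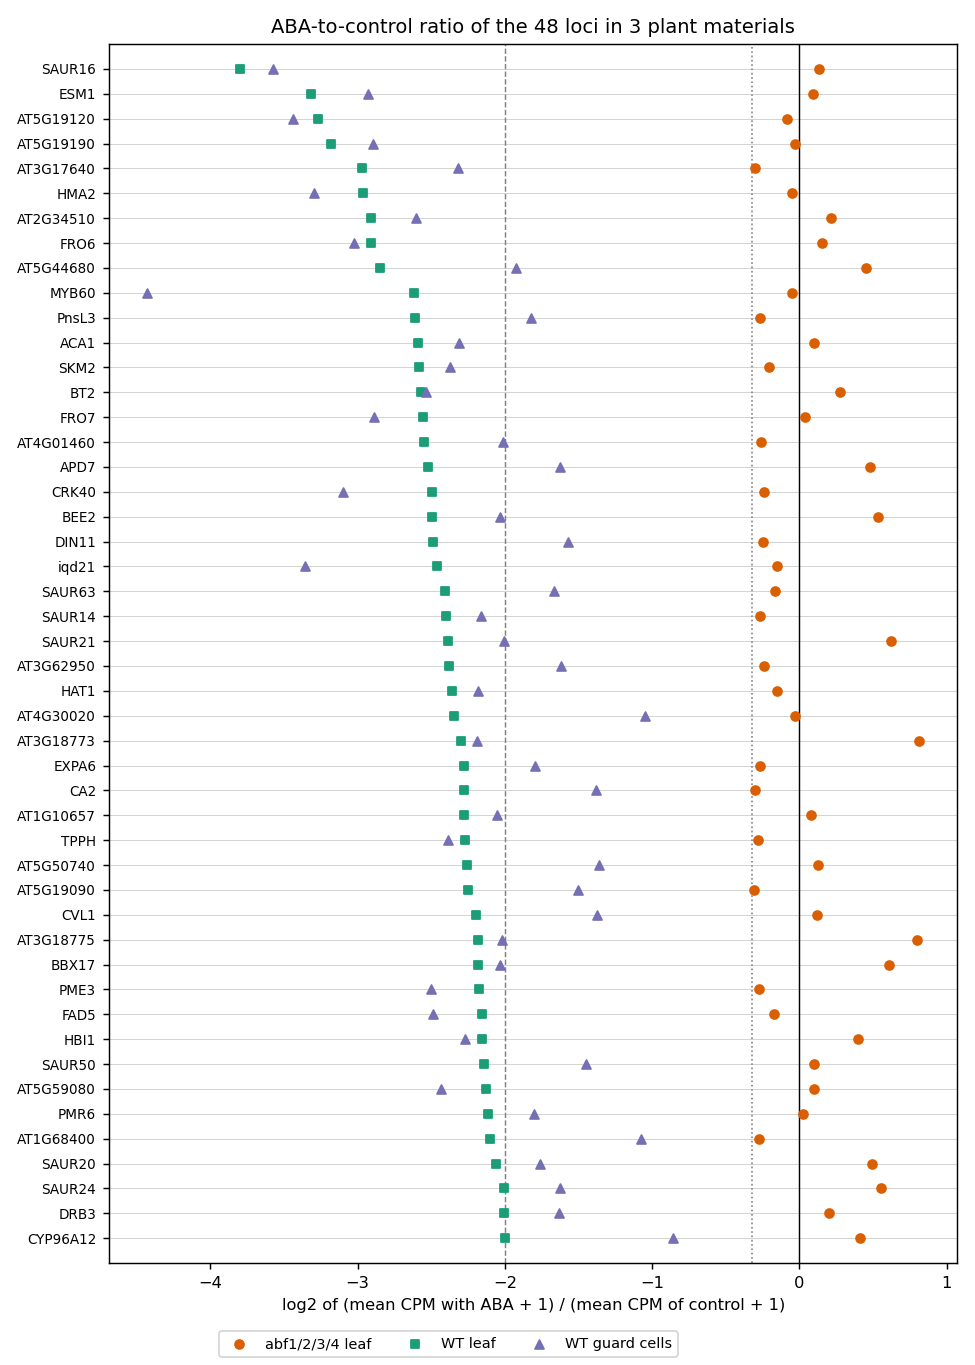
Rows are the 48 loci in the order of their WT leaf ratio, and the horizontal axis is the log2 ratio of mean CPM plus 1, ABA over control, in abf1/2/3/4 leaves (circles), WT leaves (squares) and WT guard cells (triangles). Dashed and dotted lines mark the rule's limits of 0.25 in WT leaves and 0.8 in mutant leaves. All 48 guard cell values lie below 0, between 4.65% and 55.1% of control.

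In the guard cell preparations, called guard cells here, all 48 loci fell with ABA. The preparations also held reads of vascular, mesophyll and epidermis markers, so no fall is assigned to a single cell type. The quasi-likelihood test of edgeR, adjusted by Benjamini-Hochberg over 22341 tested loci, called 48 of 48 lower and 0 higher at an adjusted p under 0.05, beside 28.5% lower and 29% higher of all tested loci (6362 and 6483). Both guard cell ABA libraries lay below both control libraries for 48 of 48, beside 61.7% of tested loci in CPM. The median log2 fold change of the members was -2.23, with a range from -4.32 to -0.77, beside a median of -0.02 for all tested loci. A fall of at least 4-fold was called for 31 members, beside 3.23% of all loci, and of at least 2-fold for 45, beside 9.92%. The fold changes use TMM factors, and total-count scaling, the scale of the CPM values printed here, makes each about 0.30 lower. With total counts, the members' calls were again 48 lower and 0 higher, beside 10860 lower and 3881 higher among all tested loci, whose median was then -0.32.

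The other loci that were low in WT leaves also fell in guard cells. All 38 loci that were low in both leaf genotypes were called lower, with a median of -3.62, and 165 of the 169 in between, with a median of -1.99. A fall of at least 4-fold was called for 38 of 38 and 84 of 169. The fall in guard cells was thus not particular to the members, and no difference between these sets was tested.

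**Figure D3:**
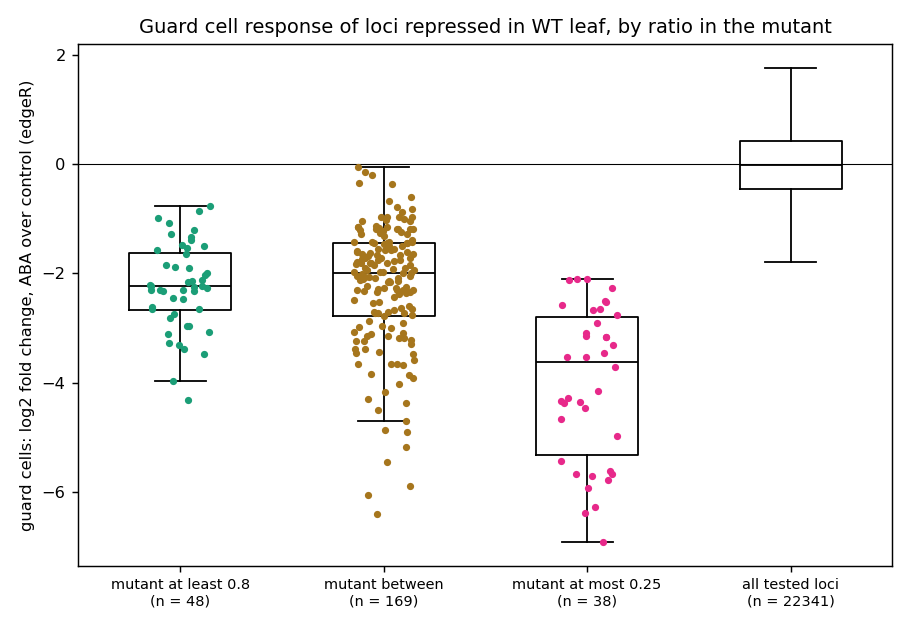
Points are loci with a WT leaf ratio of at most 0.25, split by their ratio in mutant leaves, and the vertical axis is the guard cell log2 fold change, ABA over control. Boxes show the median and quartiles, with whiskers to the last value within 1.5 box lengths. Medians were -2.23, -1.99 and -3.62 for the 3 sets and -0.02 for all 22341 tested loci.

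SAUR genes, small auxin-induced genes, were the largest family, with 7 members. SAUR proteins of the SAUR19 group are known to inhibit clade D PP2C phosphatases, which keeps the plasma membrane proton pump active and lets cells expand. All 7.0 fell in guard cells, with a median log2 fold change of -2.60 and a range from -3.96 to -1.39. SAUR16 (AT4G38860, chr4:18130237-18131284, plus strand, 1 exon) had the lowest WT ratio of all members. SAUR16 stood at 53.8 and 42.3 CPM with ABA and 46.8 and 40.7 CPM in control in mutant leaves, against 3.87 and 1.68 CPM with ABA and 51.1 and 52.2 CPM in control in WT leaves. SAUR16 in guard cells fell to 1.94 and 0.949 CPM with ABA, against 28.9 and 27.3 CPM in control (log2 fold change -3.96, SE 0.34, edgeR adjusted p = 2.29e-06). The mutant groups overlapped, and in both WT materials the ABA libraries were far below the controls. SAUR14 stood at 14.8 and 9.94 CPM with ABA and 15.5 and 14.7 CPM in control in mutant leaves, against 5.55 and 4.24 CPM with ABA and 31.1 and 29.1 CPM in control in WT leaves. SAUR14 in guard cells fell to 3.95 and 3.28 CPM with ABA, against 20.3 and 19.0 CPM in control (log2 fold change -2.14, SE 0.20, edgeR adjusted p = 5.23e-06). Its level in mutant control leaves was 0.503 of that in WT control leaves, the lowest such ratio among the members. SAUR50 stood at 13.3 and 10.55 CPM with ABA and 11.3 and 10.9 CPM in control in mutant leaves, against 1.98 and 1.25 CPM with ABA and 9.61 and 11.5 CPM in control in WT leaves. SAUR50 in guard cells fell to 3.17 and 3.56 CPM with ABA, against 11.7 and 10.1 CPM in control (log2 fold change -1.39, SE 0.20, edgeR adjusted p = 1.48e-04). SAUR20, SAUR21 and SAUR24 lie close together on chromosome 5 and were low, at 4.84 to 6.39 CPM in WT control leaves. SAUR21 stood at 9.30 and 6.68 CPM with ABA and 5.73 and 3.95 CPM in control in mutant leaves, against 0.427 and 0.340 CPM with ABA and 6.39 and 6.06 CPM in control in WT leaves. For these 3 genes both mutant ABA libraries exceeded both mutant controls, with ratios of 1.41, 1.54 and 1.47. Their guard cell log2 fold changes were -3.30 (edgeR, SE 0.34, adjusted p = 9.96e-06), -3.47 (edgeR, SE 0.33, adjusted p = 5.63e-06) and -2.26 (edgeR, SE 0.20, adjusted p = 3.60e-06). In guard cells with ABA they had 0.186 and 0.356 CPM, 0.336 and 0.277 CPM, and 0.746 and 0.712 CPM, against 3.08 to 4.67 CPM in control. The sizes of these falls rest on few reads: the 3 genes had lowest guard cell counts of 5, 7 and 18. Their transcripts are 88.8% to 91.7% identical over aligned bases, and 5.19% to 7.11% of their 50-base words occur elsewhere in the genome, so the authors' counting could split some reads between them. The guard cell log2 fold change of SAUR63 was -2.60 (edgeR, SE 0.33, adjusted p = 5.15e-05), and 25.6% of its exon bases lie in another locus, AT1G29435.

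Over the whole SAUR family, 54 of 79 listed genes were tested in guard cells, and 29 were called lower, 12 higher and 13 neither, with a median of -1.18 (34 lower and 8 higher with total-count scaling). Among all tested loci, 28.5% were called lower and 29% higher (10860 and 3881 of 22341 with total-count scaling). In WT control leaves, 20 SAUR genes had at least 5 CPM, and 8 of these had a WT ratio of at most 0.25, of which 7 are members. The other, SAUR62, had 4.13 CPM with ABA and 6.16 CPM in control in mutant leaves, a ratio of 0.717. SAUR30 and SAUR35, chosen after their values were seen, rose in guard cells, with log2 fold changes of 2.28 (edgeR, SE 0.11, adjusted p = 3.19e-08) and 5.70 (edgeR, SE 0.27, adjusted p = 1.94e-08). The family therefore held genes called in both directions, and the 7 members were among the 29 that fell. APD7 (AT5G02760), a clade D PP2C phosphatase of the kind that SAURs inhibit, was itself a member. APD7 stood at 41.2 and 21.7 CPM with ABA and 24.6 and 20.1 CPM in control in mutant leaves, against 2.62 and 3.50 CPM with ABA and 23.5 and 21.1 CPM in control in WT leaves. APD7 in guard cells fell to 5.85 and 6.17 CPM with ABA, against 20.9 and 20.3 CPM in control (log2 fold change -1.47, SE 0.27, edgeR adjusted p = 7.50e-04). One mutant ABA library was high and the other near the controls.

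Transcription regulators made up 7 members. All 7.0 fell in guard cells, with a median log2 fold change of -2.29 and a range from -4.32 to -1.89. HBI1 and BEE2 are bHLH factors that promote cell elongation downstream of brassinosteroid. HBI1 stood at 135 and 146 CPM with ABA and 105 and 108 CPM in control in mutant leaves, against 25.3 and 19.0 CPM with ABA and 96.0 and 108 CPM in control in WT leaves. HBI1 in guard cells fell to 19.6 and 16.9 CPM with ABA, against 92.2 and 91.4 CPM in control (log2 fold change -2.03, SE 0.13, edgeR adjusted p = 2.63e-07). In mutant leaves both ABA libraries of HBI1 were above both controls, the opposite of both WT materials. BEE2 stood at 82.9 and 91.6 CPM with ABA and 62.7 and 56.9 CPM in control in mutant leaves, against 8.23 and 7.07 CPM with ABA and 43.9 and 51.6 CPM in control in WT leaves. BEE2 in guard cells fell to 6.26 and 6.05 CPM with ABA, against 28.4 and 28.1 CPM in control (log2 fold change -1.89, SE 0.12, edgeR adjusted p = 1.78e-07). BEE2 showed the same order of libraries as HBI1 in all 3 materials. HAT1, an HD-Zip class II factor known from shade and brassinosteroid responses, stood at 11.4 and 11.4 CPM with ABA and 13.3 and 12.1 CPM in control in mutant leaves, against 2.59 and 2.50 CPM with ABA and 14.9 and 19.5 CPM in control in WT leaves. HAT1 in guard cells fell to 1.75 and 1.46 CPM with ABA, against 12.2 and 9.49 CPM in control (log2 fold change -2.44, SE 0.20, edgeR adjusted p = 1.49e-06). In mutant leaves both HAT1 ABA libraries lay below both controls in CPM, but the groups overlapped with TMM-scaled totals. BBX17, a B-box zinc finger protein, stood at 58.0 and 61.5 CPM with ABA and 38.9 and 38.8 CPM in control in mutant leaves, against 3.60 and 5.20 CPM with ABA and 21.2 and 25.8 CPM in control in WT leaves. Mutant leaves with ABA were the highest of its leaf groups. Its guard cell log2 fold change was -2.22 (edgeR, SE 0.19, adjusted p = 2.14e-06). The bHLH gene AT4G01460 was low, at 7.21 and 11.3 CPM in WT control leaves, and had a guard cell log2 fold change of -2.96 (edgeR, SE 0.36, adjusted p = 3.37e-05). BT2, a BTB and TAZ domain protein, stood at 44.3 and 85.7 CPM with ABA and 36.5 and 70.7 CPM in control in mutant leaves, against 1.98 and 3.54 CPM with ABA and 16.6 and 26.1 CPM in control in WT leaves. BT2 in guard cells fell to 16.1 and 25.4 CPM with ABA, against 129 and 122 CPM in control (log2 fold change -2.29, SE 0.39, edgeR adjusted p = 4.26e-04). BT2 was higher in replicate 2 than in replicate 1 in both mutant groups, and the 2 mutant groups overlapped.

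MYB60, an R2R3 MYB factor of guard cells that promotes stomatal opening, was the only one of the 9 guard cell markers among the members. MYB60 stood at 17.6 and 19.4 CPM with ABA and 19.7 and 18.5 CPM in control in mutant leaves, against 1.43 and 1.74 CPM with ABA and 14.0 and 15.7 CPM in control in WT leaves. MYB60 in guard cells fell to 7.12 and 6.29 CPM with ABA, against 163 and 167 CPM in control (log2 fold change -4.32, SE 0.10, edgeR adjusted p = 2.22e-10). This was the largest guard cell fall of the 48 loci. MYB60 was 11.1 times as high in guard cell control as in WT leaf control on the CPM scale. In guard cells, 7 of the 9 guard cell markers were called lower and 2 higher by edgeR under TMM, RLE, upper quartile and total-count scaling. With TMM, 28.5% of all tested loci were called lower and 29% higher. In leaves, 3 of the 9 in the mutant and 5 in WT had a lower mean CPM with ABA than in control, MYB60 in both. How far the other markers' lower levels bear on the MYB60 value was not tested.

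**Figure D4:**
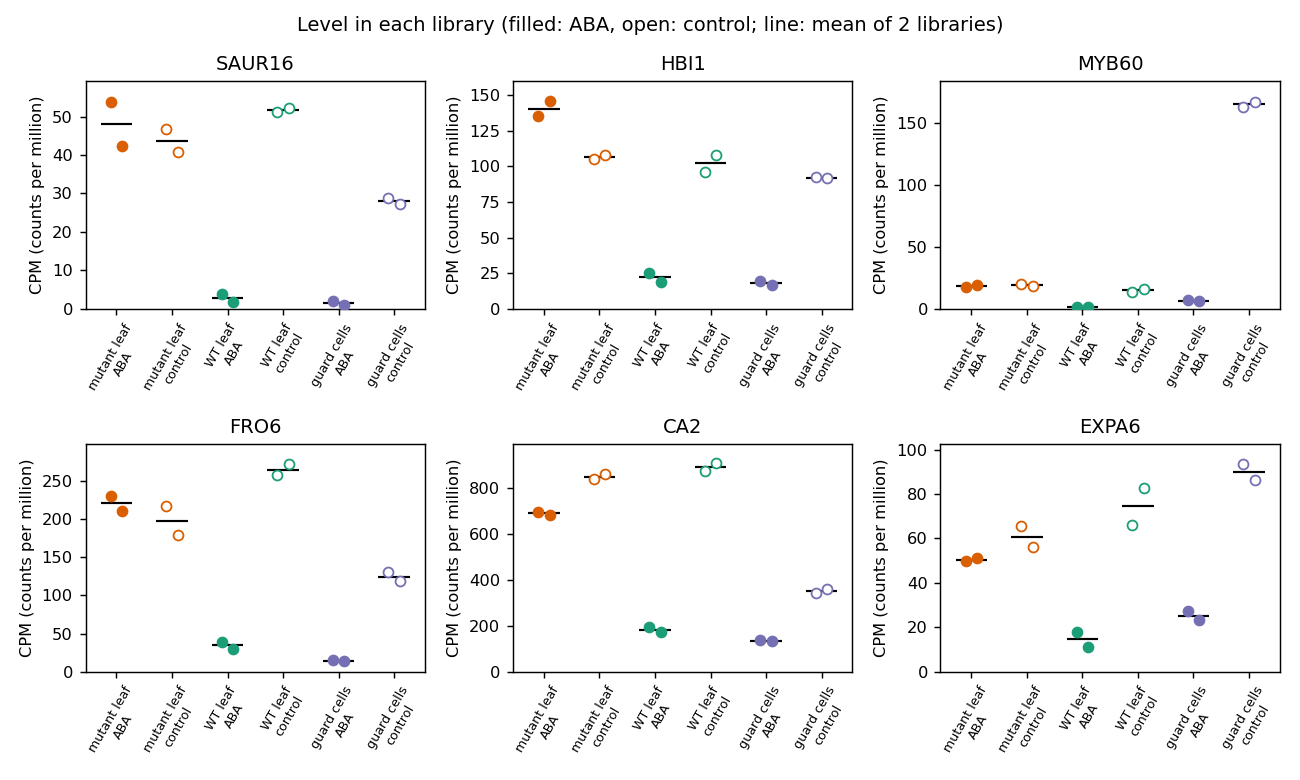
Each panel shows 1 locus, with CPM on a linear axis from 0, filled circles for ABA and open circles for control libraries, and a line at the mean of 2. In each panel the WT leaf and guard cell ABA libraries lie below their controls, while mean mutant leaf ratios run from 81.1% of control for CA2 to 132% for HBI1.

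Cell wall genes were 4 members. All 4.0 fell in guard cells, with a median log2 fold change of -1.89 and a range from -2.47 to -1.53. EXPA6, an expansin, loosens the wall without cutting it, PME3 removes methyl groups from pectin, PMR6 is a pectate lyase-like protein known from powdery mildew susceptibility, and AT2G34510 has a DUF642 domain. EXPA6 stood at 49.9 and 51.0 CPM with ABA and 65.4 and 56.2 CPM in control in mutant leaves, against 18.04 and 11.0 CPM with ABA and 66.2 and 82.8 CPM in control in WT leaves. EXPA6 in guard cells fell to 27.1 and 23.2 CPM with ABA, against 93.6 and 86.3 CPM in control (log2 fold change -1.53, SE 0.19, edgeR adjusted p = 4.93e-05). The EXPA6 groups did not overlap in any of the 3 materials. PME3 stood at 305 and 344 CPM with ABA and 404 and 382 CPM in control in mutant leaves, against 83.5 and 88.9 CPM with ABA and 408 and 377 CPM in control in WT leaves. PME3 in guard cells fell to 91.6 and 69.4 CPM with ABA, against 484 and 435 CPM in control (log2 fold change -2.21, SE 0.12, edgeR adjusted p = 6.05e-08). In mutant leaves, both ABA libraries of EXPA6 and of PME3 were below their controls, by less than in WT leaves. AT2G34510 kept 116% of control in mutant leaves and 13.3% in WT leaves, and its guard cell log2 fold change was -2.47 (edgeR, SE 0.14, adjusted p = 6.79e-08). PMR6, with 34.2% of its exon bases in other loci, kept 102% in mutant and 23.1% in WT leaves, with a guard cell log2 fold change of -1.57 (edgeR, SE 0.11, adjusted p = 6.31e-07). Of 22 tested expansin genes, 10 were called lower and 6 higher in guard cells (median -0.51), and of 16 tested pectin methylesterase and inhibitor genes, 7 lower and 6 higher (median -0.30). With total-count scaling these were 13 lower and 6 higher expansins, and 9 lower and 2 higher pectin genes. Of all tested loci, 28.5% were called lower and 29% higher, and with total-count scaling 10860 and 3881 of 22341. Among the expansins, 4 had a WT leaf ratio of at most 0.25, and EXPA6 was the only member. EXPA1 had a mutant ratio of 0.128 and EXPA5 of 0.243, both also low in the mutant, and EXPA8 of 0.484.

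Metal handling genes were 5 members. All 5.0 fell in guard cells, with a median log2 fold change of -2.75 and a range from -3.07 to -1.28. FRO6 and FRO7 are ferric reductases of shoots, and FRO7 is known to serve the chloroplast. FRO6 stood at 231 and 211 CPM with ABA and 217 and 179 CPM in control in mutant leaves, against 38.9 and 30.1 CPM with ABA and 259 and 272 CPM in control in WT leaves. FRO6 in guard cells fell to 15.5 and 13.3 CPM with ABA, against 130.1 and 119 CPM in control (log2 fold change -2.81, SE 0.15, edgeR adjusted p = 4.86e-08). The 2 mutant groups of FRO6 overlapped in CPM, with ABA above control under TMM-scaled totals, and the groups of both WT materials were far apart. FRO7 stood at 123 and 124 CPM with ABA and 134 and 107 CPM in control in mutant leaves, against 30.6 and 21.6 CPM with ABA and 165 and 152 CPM in control in WT leaves. FRO7 in guard cells fell to 7.46 and 7.04 CPM with ABA, against 63.7 and 56.4 CPM in control (log2 fold change -2.75, SE 0.17, edgeR adjusted p = 2.01e-07). FRO7 showed the same pattern as its neighbour. Their transcripts are 93.3% identical over aligned bases, and 14.2% of the 50-base words of FRO6 and 23.2% of those of FRO7 occur more than once in the genome, so part of their reads may be shared. HMA2 is a zinc-exporting P-type ATPase known from vascular tissue. HMA2 stood at 33.9 and 39.1 CPM with ABA and 42.7 and 32.9 CPM in control in mutant leaves, against 5.30 and 3.06 CPM with ABA and 43.4 and 35.3 CPM in control in WT leaves. HMA2 in guard cells fell to 18.9 and 11.7 CPM with ABA, against 152 and 166 CPM in control (log2 fold change -3.07, SE 0.24, edgeR adjusted p = 1.08e-06). HMA2 was 4.04 times as high in guard cell control as in WT leaf control. The summed vascular markers were higher in the guard cell preparations too, at the values given above, and their part in the HMA2 level was not tested. With ABA, that vascular sum was 3491 to 3689 CPM in guard cells, against 3414 to 3583 CPM at control. Most of it was SUC2, at 3354 CPM with ABA and 3212 CPM at control. Among the 7 vascular markers, edgeR called 1 lower and 5 higher, and with total-count scaling 1 lower and 2 higher. Of all tested loci, 28.5% were lower and 29% higher, and with total-count scaling 10860 and 3881 of 22341. AT5G50740 and AT5G19090, annotated as heavy metal transport or detoxification proteins, had guard cell log2 fold changes of -1.51 (edgeR, SE 0.29, adjusted p = 0.00108) and -1.28 (edgeR, SE 0.13, adjusted p = 8.10e-06).

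Chloroplast and carbon genes were 4 members. All 4.0 fell in guard cells, with a median log2 fold change of -2.11 and a range from -2.31 to -1.09. CA2 is a beta carbonic anhydrase, which interconverts carbon dioxide and bicarbonate. CA2 stood at 695 and 680.4 CPM with ABA and 835 and 859.9 CPM in control in mutant leaves, against 195 and 171 CPM with ABA and 872 and 904 CPM in control in WT leaves. CA2 in guard cells fell to 136 and 133 CPM with ABA, against 343 and 361 CPM in control (log2 fold change -1.09, SE 0.08, edgeR adjusted p = 9.54e-07). Its mutant ABA libraries were below the mutant controls, at 81.1% of control on average. ACA1, an alpha carbonic anhydrase, stood at 14.4 and 12.8 CPM with ABA and 14.9 and 10.3 CPM in control in mutant leaves, against 0.975 and 1.04 CPM with ABA and 10.51 and 11.7 CPM in control in WT leaves. ACA1 in guard cells fell to 3.39 and 3.68 CPM with ABA, against 20.1 and 23.0 CPM in control (log2 fold change -2.31, SE 0.17, edgeR adjusted p = 8.78e-07). The mutant groups of ACA1 overlapped, and those of WT plants did not. FAD5, a plastid fatty acid desaturase, stood at 173 and 176 CPM with ABA and 209 and 185 CPM in control in mutant leaves, against 48.4 and 45.8 CPM with ABA and 211 and 216 CPM in control in WT leaves. FAD5 in guard cells fell to 28.8 and 27.3 CPM with ABA, against 166 and 158 CPM in control (log2 fold change -2.22, SE 0.08, edgeR adjusted p = 2.62e-09). PnsL3, a lumenal subunit of the chloroplast NDH complex, kept 83.0% of control in mutant leaves and 16.3% in WT leaves, and its guard cell log2 fold change was -1.99 (edgeR, SE 0.15, adjusted p = 7.34e-07). PnsL3 was the member with the lowest guard cell level relative to leaves, at 0.226 of the WT leaf control level. Of the 7 mesophyll markers, 0 were called lower, 2 higher and 5 neither in guard cells (median -0.13), but with total-count scaling 4 were called lower and 1 higher (median -0.43). Their sum in guard cells was 13927 to 14332 CPM with ABA, against 18056 to 18226 CPM in control, and its part in the fall of these members was not tested.

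Receptors and signalling proteins were 7 members, APD7 included. All 7.0 fell in guard cells, with a median log2 fold change of -2.31 and a range from -3.11 to -0.87. CRK40 is a cysteine-rich receptor-like kinase, SKM2 a leucine-rich receptor kinase, and AT3G17640 and AT1G68400 are annotated as leucine-rich repeat proteins. CRK40 stood at 111 and 146 CPM with ABA and 117 and 188 CPM in control in mutant leaves, against 23.7 and 17.8 CPM with ABA and 117 and 126 CPM in control in WT leaves. CRK40 in guard cells fell to 8.61 and 6.01 CPM with ABA, against 72.7 and 67.7 CPM in control (log2 fold change -2.96, SE 0.26, edgeR adjusted p = 3.04e-06). The mutant control libraries of CRK40 spread from 117 to 188 CPM. SKM2 kept 86.8% of control in mutant leaves and 16.6% in WT leaves, with a guard cell log2 fold change of -2.31 (edgeR, SE 0.17, adjusted p = 6.74e-07). AT3G17640 kept 81.1% in mutant and 12.8% in WT leaves, and its guard cell value was -2.65 (edgeR, SE 0.21, adjusted p = 1.22e-06). The smallest fall of the group was that of AT1G68400, at -0.87 (edgeR, SE 0.15, adjusted p = 5.47e-04). IQD21, an IQ-domain protein of a calmodulin-binding family (symbol iqd21), stood at 74.8 and 69.7 CPM with ABA and 86.6 and 74.2 CPM in control in mutant leaves, against 15.2 and 12.6 CPM with ABA and 69.6 and 92.7 CPM in control in WT leaves. IQD21 in guard cells fell to 22.8 and 18.7 CPM with ABA, against 225 and 218 CPM in control (log2 fold change -3.11, SE 0.16, edgeR adjusted p = 4.11e-08). CVL1, related to the vein patterning phosphatase CVP2, had a guard cell log2 fold change of -1.20 (edgeR, SE 0.12, adjusted p = 6.23e-06).

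Of the other 14 members, ESM1 (epithiospecifier modifier 1) stood highest per length. It favours isothiocyanates among the breakdown products of glucosinolates. ESM1 stood at 1736 and 1502 CPM with ABA and 1697 and 1340.0 CPM in control in mutant leaves, against 162 and 149 CPM with ABA and 1375 and 1732 CPM in control in WT leaves. ESM1 in guard cells fell to 87.2 and 69.1 CPM with ABA, against 574 and 629.9 CPM in control (log2 fold change -2.64, SE 0.17, edgeR adjusted p = 2.08e-07). In WT control leaves, members ranged from 2.53 to 796 CPM per kilobase of exon, with a median of 13.4, and ESM1 was at the top. Of its 50-base words, 22.3% occur more than once in the genome. AT5G19120, an aspartyl protease family gene, stood at 61.2 and 58.1 CPM with ABA and 54.5 and 72.0 CPM in control in mutant leaves, against 2.41 and 3.54 CPM with ABA and 33.0 and 41.6 CPM in control in WT leaves. AT5G19120 in guard cells fell to 4.77 and 4.78 CPM with ABA, against 68.8 and 54.8 CPM in control (log2 fold change -3.39, SE 0.21, edgeR adjusted p = 1.57e-07). Of its 3 materials, mutant leaves alone had overlapping groups. AT3G62950, a thioredoxin superfamily gene, stood at 11.1 and 12.8 CPM with ABA and 14.2 and 14.3 CPM in control in mutant leaves, against 1.28 and 2.06 CPM with ABA and 12.6 and 13.2 CPM in control in WT leaves. AT3G62950 in guard cells fell to 48.2 and 50.1 CPM with ABA, against 168 and 138 CPM in control (log2 fold change -1.34, SE 0.12, edgeR adjusted p = 3.54e-06). AT3G62950 was 11.9 times as high in guard cell control as in WT leaf control, the highest such ratio of the 48. TPPH, a trehalose phosphate phosphatase, had a guard cell log2 fold change of -2.24 (edgeR, SE 0.12, adjusted p = 4.55e-08), and AT5G44680, of the DNA glycosylase superfamily, of -1.65 (edgeR, SE 0.13, adjusted p = 9.94e-07). AT4G30020, a subtilase, had the smallest guard cell change of all members, -0.77 (edgeR, SE 0.16, adjusted p = 0.00202). DRB3, a double-stranded RNA-binding protein, had -2.12 (edgeR, SE 0.26, adjusted p = 4.58e-05).

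DIN11, a 2-oxoglutarate-dependent oxygenase named for induction in the dark, and CYP96A12, a cytochrome P450, were the weakest guard cell calls. DIN11 had 0.783 and 1.74 CPM with ABA in guard cells, against 6.72 and 4.69 CPM in control (log2 fold change -1.88, SE 0.74, edgeR adjusted p = 0.0491). CYP96A12 had 1.305 and 1.305 CPM with ABA, against 3.23 and 3.14 CPM in control (log2 fold change -0.98, SE 0.38, edgeR adjusted p = 0.0433). Leaving out any single guard cell library ended both calls, with edgeR adjusted p of 0.0723 to 0.240 for DIN11 and 0.106 to 0.139 for CYP96A12, while the other 46 kept their calls. AT3G18773, a RING protein gene, and AT3G18775 overlap on opposite strands, and 68.4% of the exon bases of AT3G18775 lie in the other locus. The strand setting is not given, so they may not be separate measurements. AT3G18773 stood at 32.5 and 35.0 CPM with ABA and 17.5 and 20.1 CPM in control in mutant leaves, against 1.07 and 1.61 CPM with ABA and 9.32 and 11.7 CPM in control in WT leaves. Its mutant ratio, 1.76, was the highest of the members. Its guard cell log2 fold change was -2.33 (edgeR, SE 0.19, adjusted p = 1.85e-06), and that of AT3G18775 was -2.30 (edgeR, SE 0.24, adjusted p = 1.15e-05). The uncharacterized loci AT5G19190, AT1G10657 and AT5G59080 had guard cell log2 fold changes of -3.28 (edgeR, SE 0.13, adjusted p = 7.23e-09), -1.85 (edgeR, SE 0.14, adjusted p = 8.35e-07) and -2.16 (edgeR, SE 0.14, adjusted p = 2.17e-07), and 48.9% of the exon bases of AT5G59080 lie in another locus.

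Levels in untreated material differed widely among the members. Guard cell control was above WT leaf control for 19 of 48 in CPM, with ratios from 0.226 to 11.9 and a median of 0.858. The ratio was at least 2 for 7 loci, AT3G62950, MYB60, BT2, AT5G59080, HMA2, TPPH and IQD21, also with TMM-scaled totals, which lower each ratio by a factor of 0.766. It was at most 0.5 for 9 loci. With TMM-scaled totals, 11 loci were above 1, 17 were at most 0.5 and the median was 0.657. Mutant control was above WT control in leaves for 24 of 48 in CPM, with ratios from 0.503 for SAUR14 to 2.51 for BT2 and a median of 0.996. This split depends on scaling. The TMM factors were 1.047 and 1.038 for mutant control and 0.958 and 0.941 for WT control, so TMM-scaled totals lower each of these ratios. No share over all loci is given for it. With ABA, every member was higher in mutant than in WT leaves, by a ratio of 2.53 to 25.2 and a median of 7.27, which the rule itself nearly fixes.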

How the data were processed

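RNA-seq libraries from 12 samples, 2 in each of 6 groups, were deposited as counts of reads per gene locus. Per the submitters' processing notes, the reads were trimmed with Trim Galore 0.6.5, the authors counted them with featureCounts, and TAIR10 was the genome. The aligner and the strand setting are not given in the sources used here, so reads of overlapping loci cannot be assigned to a strand. The labels call the samples biological replicates, with 2 in a group. The p-values measure only the spread between replicate libraries. That spread was estimated over all 12 libraries, leaf libraries included, and shared across loci.

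CPM (counts per 1000000) were computed from column sums, and the rule was applied to them with 1 CPM added. The counts were fitted with edgeR 4.0.16 (R 4.3.3): filterByExpr with a minimum count of 10, TMM factors, 6 group means over all 12 libraries, and a two-sided quasi-likelihood F-test of guard cells with ABA against control. P-values were adjusted by Benjamini-Hochberg over 22341 loci, and an adjusted p under 0.05 was called. The procedure was also run on simulated counts with few changed loci, as many raised as lowered. That run does not test the scaling of the real contrast, where many loci changed. Locus names and coordinates came from the RefSeq annotation of TAIR10.1, which matched 36632 of 36796 loci and all 48 members. Upstream windows of 250 bases were read from that assembly in place of a promoter table. Counting words of 50 bases and aligning transcripts gave the measures of shared sequence.

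The members and gene lists were chosen with earlier results of these data known, and the role groups were assigned after values were seen. The naming rule took members with the lowest WT ratios, the largest or smallest guard cell changes, the highest levels, a place at a threshold, or a place in a list. It named 32 members, and the other 16 are named to complete the account. Alternatives were other scalings, filters, tests, thresholds and rules, a replicate term, and leaving out each library. DESeq2 1.42.0 was 1 of them.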

Additional observations from a re-analysis of the deposited data

How the results depend on the processing

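The count of members that fell in guard cells was 48 of 48 with RLE, upper quartile and total-count scaling, with no filter, with DESeq2 and with the 4 guard cell libraries alone. It was 46 without each guard cell library in turn, 46 at an adjusted p under 0.01, 45 with a minimum absolute log2 fold change of 1, and 47 with a minimum mean of 50 counts. DIN11 (adjusted p 0.0518 with a minimum mean of 50 counts) and CYP96A12 account for the calls lost there, with AT4G30020 and AT1G68400 under the minimum fold change. The members' median was -2.35 with upper quartile and -2.54 with total-count scaling. All tested loci gave 10860 lower and 3881 higher with total-count scaling and 2217 lower and 2561 higher with the minimum fold change of 1. They gave 7929 lower and 5260 higher with upper quartile, 6460 and 6416 with RLE, and 5602 and 5722 with DESeq2. With no filter they gave 6368 and 6307, and with a minimum mean of 50 counts 5697 and 5899, where other numbers of loci were tested. With a WT ratio of at most 0.2, 27 loci were chosen, 27 fell, and the median was -2.60. With 0.5 CPM added 65 loci were chosen and the median was -2.14. With 2 CPM added 34 were chosen, with a mutant ratio of at least 0.9, 32, and with TMM-scaled totals 52, of which 44 were among the 48, and all of these fell. Without members that have over 25% of exon bases in another locus 44 of 44 fell, and without members with repeated words 39 of 39 fell, both chosen after seeing the data. The samples share replicate numbers, but same-numbered deviations correlated between -0.08 and 0.107, so the numbers were not taken as pairs. With the replicate number as a block, 47 members fell (DIN11 adjusted p 0.0597). The rule met in both numbered pairs (replicate block) chose 25 loci, of which 25 fell, with a median of -2.33. Leaving out 1 library at a time, the rule chose 43 to 63 loci and 43 to 63 fell, with 46 of 47 without replicate 1 of mutant leaves with ABA and every chosen locus without each of the other leaf libraries. Their median ran from -2.29 to -1.89, the last without replicate 1 of WT leaves with ABA, where 63 loci were chosen. In these runs all tested loci gave 4957 to 6703 lower and 5275 to 6737 higher. A fit with 1 guard cell library in a group takes its spread from the other groups. The SE was largest for DIN11 (0.74), BT2 (0.39) and CYP96A12 (0.38), and BT2 was not a low member.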
